A study of Mus musculus with 15 samples.

Results

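The minor spliceosome removes a small class of introns, called U12-type after one of its RNAs, and the 10 genes described here encode proteins that belong to it and not to the major spliceosome. They were chosen by symbol from the 36144 genes of the gene table, not by a rule on their values. Earlier results of these data were known when they were chosen. All 10 were found in all 15 libraries. The libraries came from lumbar (L1 to L3) motor neurons of FVB mouse pups at postnatal day 6, labelled with cholera toxin subunit B and cut out by laser capture. There were 5 groups of 3 biological replicates, named here by group and replicate number (WT 1). WT pups had the genotype Smn+/+;SMN2;SMNdelta7 and received vehicle. SMA pups, a model of spinal muscular atrophy, had the genotype Smn-/-;SMN2;SMNdelta7 and received vehicle. The other groups were SMA pups of that genotype given MW150 (an inhibitor of the kinase p38α) at 5 mg/kg, Pifithrin-alpha (an inhibitor of p53) at 2.2 mg/kg, or SMN-C3, which alters how SMN2 is spliced, at 3 mg/kg. All were injected intraperitoneally each day from postnatal day 0, and all 5 groups carried both human transgenes. Both sexes were used in equal proportions, and how many pups or cells went into a library was not given in the sources used here.

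In the minor spliceosome the U11 and U12 small nuclear RNAs form one joint particle that reads the start and the branch point of a U12-type intron, while U4atac and U6atac take the places of U4 and U6. SMN, the protein lost in spinal muscular atrophy, loads the Sm protein ring onto U11, U12 and U4atac, as it does onto RNAs of the major spliceosome. Minor spliceosome components have long been studied in SMA models for that reason. Among the members, Snrnp25, Snrnp35, Snrnp48, Pdcd7, Rnpc3, Zmat5 and Zcrb1 encode proteins of the U11/U12 particle. Zrsr2 and its autosomal copy Zrsr1 encode proteins that bind the end of the intron, and Rbm48 encodes a partner of U6atac.

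Rnpc3 and Snrnp48 carry a sequence feature that is known to tie their splicing to the U11 particle: tandem copies of the U12-type 5′ splice site, which U11 can bind as a splicing enhancer. In known mammalian cases the form spliced under its control yields less protein. A search of all annotated transcripts (GENCODE M21, build GRCm38, sense strand) for ATATCCTT or GTATCCTT, with 2 copies whose starts lie at most 30 bases apart, found such a tandem in 9 of 55341 genes, or 0.0163%. Among these 9 were 2 of the 10 members, whose tandems were known beforehand. Introns were searched only where an annotated transcript retains them, which is how the Snrnp48 tandem was found. At least 1 copy stood in 3417 genes (6.174%), including 3 members, the third being Zrsr1. The sequences of the tandems are shown because the transcript forms described further on either include or avoid them, with the copies of the motif in capitals.
Rnpc3: GTATCCTTtcttGTATCCTT
Snrnp48: GTATCCTTtttgcaaatgATATCCTT
The Rnpc3 tandem is at chr3:113607237-113607256 on the minus strand, in exon 15 of Rnpc3-201 and Rnpc3-202. That exon lies in the 3′ UTR, since the stop codon of Rnpc3-202 is in exon 14, and the tandem starts 43 bases after the exon's first base. Rnpc3-208 runs through it in its exon 14. Rnpc3-203 ends instead in another last exon of 184 bases (chr3:113605464-113605647), which does not hold it. The Snrnp48 tandem is at chr13:38214668-38214693 on the plus strand. Its first base is the first intron base after an extra exon of 63 bases (chr13:38214605-38214667), which Snrnp48-203 includes and Snrnp48-201 skips. Snrnp48-203 then ends in its own last exon of 367 bases (chr13:38215064-38215430), inside the intron between exons 4 and 5 of Snrnp48-201. Snrnp48-204, annotated as a retained-intron transcript, holds the tandem inside its exon 5.

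**Figure D1:**
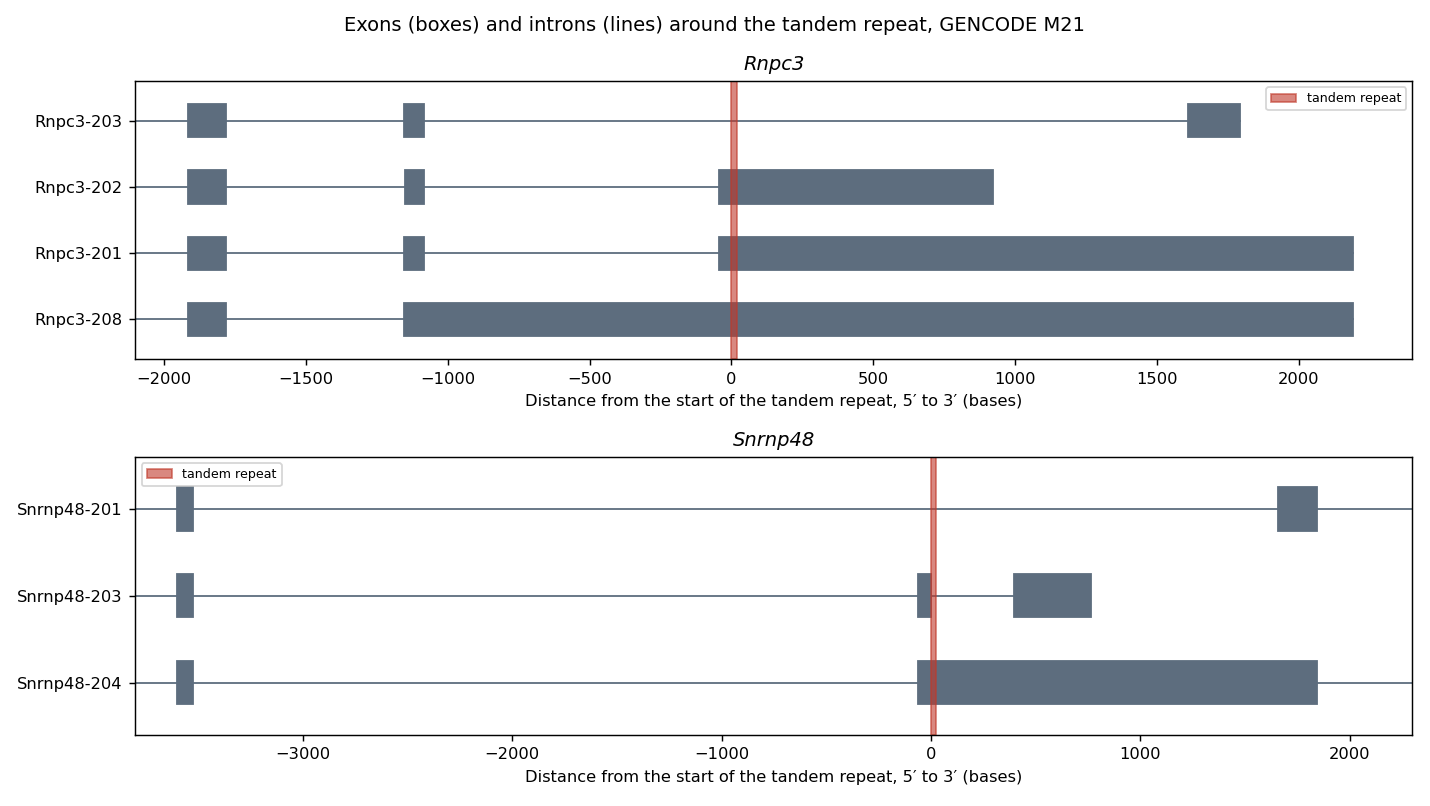
Exons (boxes) and introns (lines) of the Rnpc3 and Snrnp48 transcripts around the tandem repeat (red band); the horizontal axis is the distance in bases from the first base of the tandem, in the direction of transcription. Rnpc3-203 splices past the tandem and Rnpc3-201, Rnpc3-202 and Rnpc3-208 include it, while in Snrnp48-203 the extra exon of 63 bases ends where the tandem begins.

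The libraries were not alike in quality. Mitochondrial transcripts made up 21.9% of TPM (transcript abundance per length and library total, the deposited unit) in WT 1 and 20.4% in Pifithrin-alpha 3, against 3.76% to 12.6% in the other 13. WT 1 also gave the largest share of TPM to transcripts annotated as retaining an intron, 6.195%, against 3.15% to 5.34% elsewhere. Smn1, the mouse SMN gene, was at 8.97 to 23.3 TPM in the WT libraries and at 0 to 1.498 TPM in all 12 libraries of the SMA genotype, as labelled. All 7 motor neuron markers were above 0 in every library (1080 to 3011 TPM summed). So were all 6 astrocyte markers (708 to 1775 TPM), 8 markers of the oligodendrocyte lineage, 8 microglial markers, 5 vascular markers (8.15 to 79.7 TPM) and 5 spinal interneuron markers (14.4 to 52.1 TPM). Red blood cell markers summed to 202 to 2473 TPM. Astrocyte markers summed to 708 to 1430 TPM in WT and 1326 to 1775 TPM in SMA. The oligodendrocyte lineage summed to 639 to 1898 TPM in WT, 721 to 3805 in SMA, 841 to 5321 with MW150, 415 to 1198 with Pifithrin-alpha and 560 to 1639 with SMN-C3. The summed TPM of the microglial markers was 18.8 to 47.1 in WT, 83.5 to 129 in SMA, 73.6 to 95.5 with MW150, 24.6 to 70.6 with Pifithrin-alpha and 41.2 to 57.4 with SMN-C3; the part of other cells in the differences below was not tested. In such samples fewer cells of a type and less RNA per cell cannot be told apart.

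TPM values are per length, and levels are set side by side between genes on that basis. How evenly amplification at low input kept the levels of different genes was not tested. Zcrb1 was the highest of the 10, with a median of 192.0 TPM over the 15 libraries, and stood above Zrsr2 in all 15. Zrsr2 followed with a median of 86.6 TPM and Snrnp25 with 79.1 TPM, Zrsr2 being the higher in 12 libraries. Snrnp25 was above Zmat5 (median 42.6 TPM) in all 15, and Zmat5 above Rnpc3 (34.1 TPM) in 10. Rnpc3 was above Snrnp48 (27.1 TPM) in 13 libraries. Zrsr1 (22.1 TPM), Snrnp35 (14.03 TPM), Pdcd7 (13.8 TPM) and Rbm48 (8.45 TPM) completed the order, and Snrnp35 and Pdcd7 could not be ranked, Snrnp35 being the higher in only 8 of 15. WT 1 was the highest library of all for 4 members (Zcrb1, Rnpc3, Snrnp48 and Zrsr1) and the lowest for 2 (Snrnp25 and Snrnp35). Pifithrin-alpha 3 was the lowest for 3 (Zrsr2, Zmat5 and Pdcd7). Values without WT 1 or Pifithrin-alpha 3 are given where leaving one of them out moved a difference most.

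All 10 members passed the filter on low values (at least 1 TPM in at least 3 libraries) and were tested with limma among 15425 genes on log2(TPM+1), a scale that understates the differences of low genes. None had a Benjamini-Hochberg adjusted p under 0.05 (the threshold for a call) in the test of the 5 groups at once. In that test 0.22% of all genes were called. Zmat5 came closest, with an F of 2.68 and an adjusted p of 0.532 in limma. In SMA against WT 0 of 10 members were called against 0.363% of all genes, and in MW150 against SMA and in Pifithrin-alpha against SMA 0 of 10 against 0.00648%. With SMN-C3 against SMA the count was 0 of 10 against 0.0648%. For MW150, Pifithrin-alpha and SMN-C3 against WT it was 0 of 10, against 0.143%, 0.117% and 0.0194% of all genes. At an unadjusted p under 0.05 the count was 1 of 10 in Pifithrin-alpha against SMA (Zmat5; 10.7% of all genes) and 1 of 10 in SMN-C3 against WT (Rnpc3; 7.31%). It was 0 of 10 in SMA against WT (13.5%), MW150 against SMA (1.9%), SMN-C3 against SMA (8.53%), MW150 against WT (10.2%), Pifithrin-alpha against WT (5.78%) and the 5-group test (9.46%). The 3 treated groups are compared with the same SMA libraries, and 4 comparisons share the WT libraries, so the values of these comparisons are not independent of each other.

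**Figure D2:**
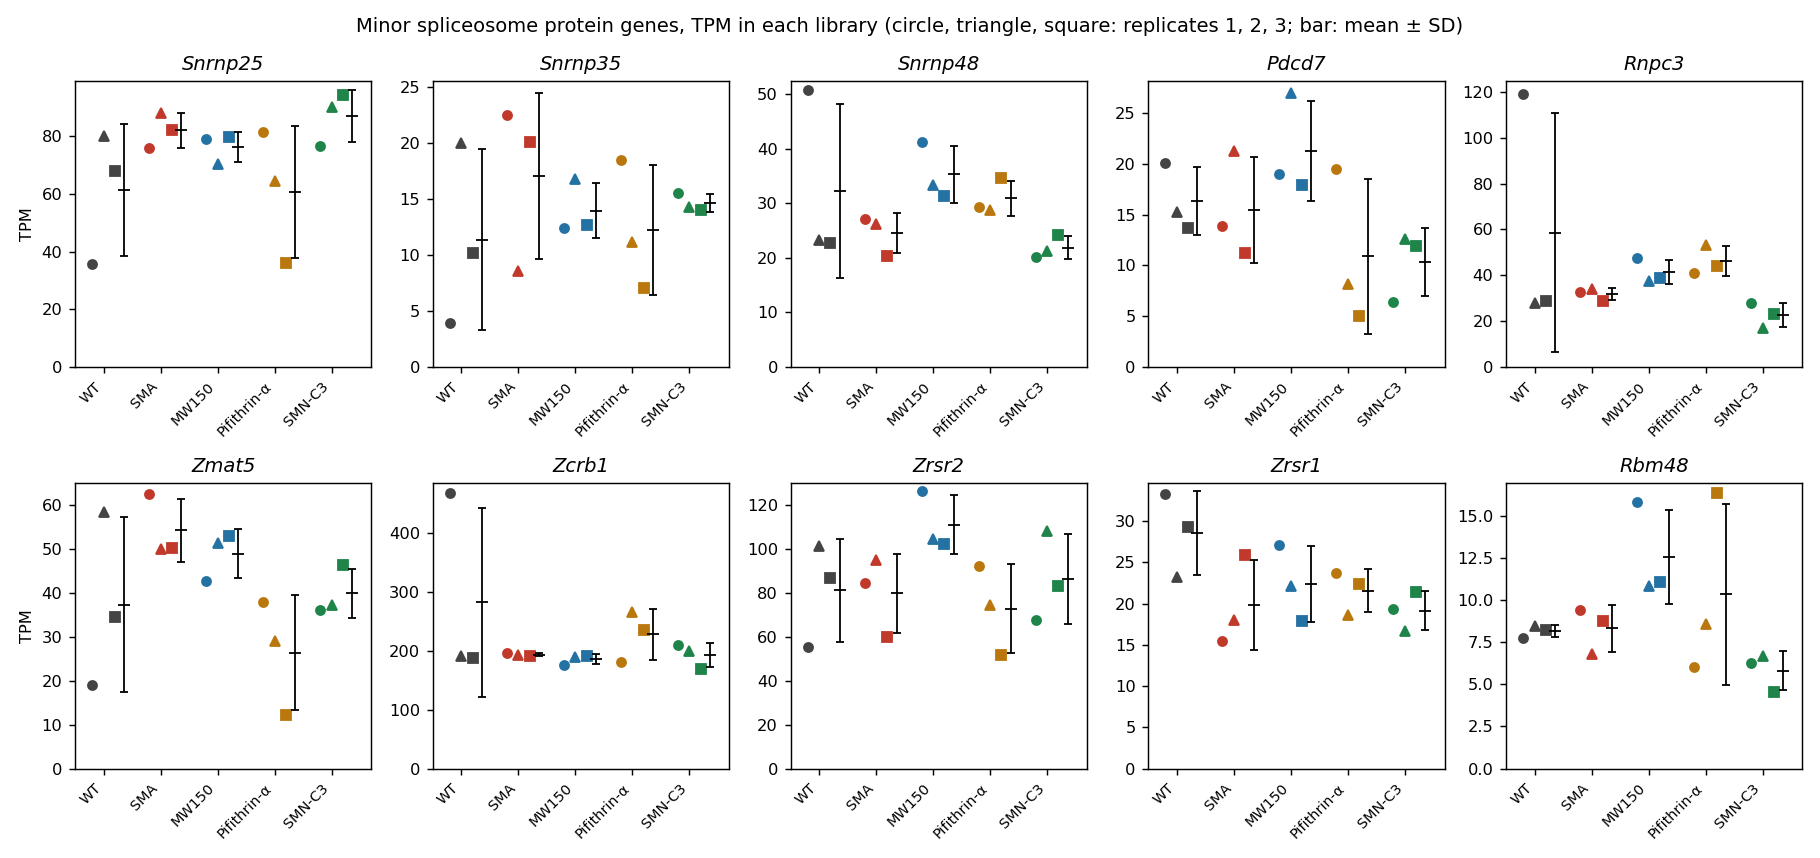
TPM of each of the 10 minor spliceosome genes in each library, by group on the horizontal axis; circles, triangles and squares are replicates 1, 2 and 3, and bars are the mean ± SD of 3 libraries. WT 1 stands far above the other libraries for Rnpc3 (119 TPM) and Zcrb1 (469 TPM), and the SMA libraries of Rnpc3, at 28.7 to 34.1 TPM, sit close to WT 2 and WT 3.

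None of the 7 U11/U12 genes passed the test in SMA against WT. With all libraries 3 of their log2 differences were positive and 4 negative, whereas without WT 1 all 7 were positive, from 0.03 to 0.26, beside a median of 0.12 over all genes. Rnpc3, which binds U12 RNA and bridges it to U11 proteins, had 119, 28.0 and 28.8 TPM in the WT libraries and 32.6, 34.1 and 28.7 TPM in the SMA ones. It was at 47.4, 37.7 and 38.8 TPM with MW150, 41.2, 53.4 and 43.9 TPM with Pifithrin-alpha, and 27.7, 17.2 and 23.1 TPM with SMN-C3. WT 1 alone set the WT mean apart (58.7 ± 52.4 TPM, SD, n = 3), and all SMA libraries lay between WT 2 and WT 1 in level. The log2 difference of SMA from WT was -0.52 (SE 0.41, limma adjusted p = 0.533), and without WT 1 it was 0.16. Both the MW150 and the Pifithrin-alpha libraries lay above every SMA library, with log2 differences of 0.36 and 0.52, and the SMN-C3 libraries below every one, with -0.49. None of these passed the test (limma adjusted p of 1, 0.574 and 0.791), and the last was -0.32 without SMN-C3 2. With array weights, which let limma weight libraries by their spread, the difference of Pifithrin-alpha from SMA was 0.72 and was called (limma adjusted p = 0.0386). It was -0.085 when the fit included the mitochondrial share. With SMN-C3 against WT the log2 difference was -1.02 (unadjusted p = 0.0244, limma adjusted p = 0.666), and -0.34 without WT 1.

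Snrnp48, the protein that recognises the U12-type 5′ splice site, had 50.7, 23.3 and 22.7 TPM in the WT libraries and 27.1, 26.1 and 20.3 TPM in the SMA ones. With MW150 it was at 41.2, 33.4 and 31.3 TPM, with Pifithrin-alpha at 29.4, 28.7 and 34.7 TPM, and with SMN-C3 at 20.1, 21.3 and 24.2 TPM. As for Rnpc3, WT 1 was the highest of all 15, the MW150 and Pifithrin-alpha libraries lay above all SMA libraries, and SMA overlapped WT. The log2 difference was -0.29 for SMA from WT (SE 0.30), 0.51 for MW150 from SMA and 0.33 for Pifithrin-alpha from SMA, with limma adjusted p of 0.629, 1 and 0.614. Without WT 1 the difference of SMA from WT was 0.08, and without SMA 3 that of Pifithrin-alpha from SMA was 0.20. Across the 15 libraries Snrnp48 and Rnpc3 had the highest correlation of log2(TPM+1) among the 45 pairs of members (Pearson r of 0.868); the libraries share their groups and WT 1, so this is a description.

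Zcrb1, an RNA-binding protein of the particle, was at 469, 191 and 188 TPM in WT, 197, 194 and 191 TPM in SMA, and 176, 190 and 192 TPM with MW150. It was at 182, 267 and 236 TPM with Pifithrin-alpha and 210, 199 and 170 TPM with SMN-C3. Apart from WT 1 and Pifithrin-alpha 2 and 3, it stayed between 170 and 210.1 TPM in every library. The SMA mean of 194 ± 3.01 TPM (SD, n = 3) differed from WT by -0.40 on the log2 scale (SE 0.29, limma adjusted p = 0.505), and by 0.03 without WT 1.

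Zmat5, a zinc finger protein of the particle, had 19.1, 58.4 and 34.5 TPM in the WT libraries and 62.5, 49.9 and 50.2 TPM in the SMA ones. It was at 42.6, 51.4 and 52.9 TPM with MW150, 38.0, 29.0 and 12.3 TPM with Pifithrin-alpha, and 36.1, 37.3 and 46.3 TPM in the SMN-C3 group. The Pifithrin-alpha and the SMN-C3 libraries lay below all 3 SMA libraries, and WT overlapped SMA. The difference of Pifithrin-alpha from SMA, -1.14 on the log2 scale (SE 0.39, unadjusted p = 0.0095, limma adjusted p = 0.461), was the largest of any member in any of the 7 comparisons. It was -0.69 without Pifithrin-alpha 3, the library with a mitochondrial share of 20.4%, and -0.86 with array weights, under which it was called (limma adjusted p = 0.0234); those weights called 1574 genes in all. For SMN-C3 from SMA it was -0.43 and for SMA from WT 0.66 (SE 0.39, limma adjusted p = 0.429), or 0.26 without WT 1. Over the 15 libraries the 3 genes whose log2(TPM+1) was most like that of Zmat5 were Serf2 (Pearson r of 0.969), Tmem91 (0.961) and Polr2f (0.961), each with its lowest value in Pifithrin-alpha 3.

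Snrnp25, a U11 protein, had 35.7, 80.1 and 68.0 TPM in the WT libraries and 76.0, 88.3 and 82.1 TPM in the SMA ones. It was at 79.1, 70.4 and 79.7 TPM with MW150, 81.4, 64.6 and 35.9 TPM with Pifithrin-alpha, and 76.8, 90.1 and 94.3 TPM with SMN-C3. WT 1 and Pifithrin-alpha 3 were the low libraries, and every group overlapped SMA. The log2 difference of SMA from WT was 0.49 (SE 0.31, limma adjusted p = 0.454), and 0.15 without WT 1.

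Snrnp35, the minor counterpart of a U1 protein, had 3.93, 20.05 and 10.2 TPM in the WT libraries and 22.5, 8.58 and 20.1 TPM in the SMA ones. It was at 12.4, 16.8 and 12.7 TPM with MW150, 18.5, 11.1 and 7.01 TPM with Pifithrin-alpha, and 15.5, 14.3 and 14.03 TPM with SMN-C3. It varied as much within WT and SMA as between groups, and its log2 difference of SMA from WT was 0.68 (SE 0.47, limma adjusted p = 0.489). It was 0.13 without WT 1 and 1.18 without WT 2.

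Pdcd7, the U11 protein that contacts Rnpc3, had 20.1, 15.3 and 13.7 TPM in the WT libraries and 13.8, 21.3 and 11.2 TPM in the SMA ones. It was at 19.0, 27.0 and 18.0 TPM with MW150, 19.5, 8.16 and 4.99 TPM with Pifithrin-alpha, and 6.43, 12.6 and 11.9 TPM with SMN-C3. Every SMN-C3 library was lower than every WT library, with a log2 difference of -0.65 (SE 0.41, limma adjusted p = 0.678) that was -0.37 without SMN-C3 1, and the other groups overlapped WT and SMA.

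Among the proteins that bind the end of the intron, Zrsr2 had 55.5, 101 and 86.6 TPM in the WT libraries and 84.3, 94.9 and 59.7 TPM in the SMA ones. It was at 126, 104 and 102 TPM with MW150, 92.0, 74.6 and 51.6 TPM with Pifithrin-alpha, and 67.5, 108 and 83.2 TPM in the SMN-C3 group. The MW150 libraries lay above all WT and all SMA libraries, with log2 differences of 0.49 from each (limma adjusted p of 0.522 and 1). They were 0.24 from WT without WT 1 and 0.30 from SMA without SMA 3. SMA differed from WT by -0.01 (SE 0.29, limma adjusted p = 0.991), and by -0.26 without WT 1.

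Zrsr1, the autosomal copy of X-linked Zrsr2, had 33.3, 23.2 and 29.3 TPM in the WT libraries and 15.4, 18.1 and 25.9 TPM in the SMA ones. It was at 27.1, 22.1 and 17.9 TPM with MW150, 23.7, 18.6 and 22.3 TPM with Pifithrin-alpha, and 19.3, 16.7 and 21.4 TPM with SMN-C3. Only the SMN-C3 libraries lay wholly below WT (log2 difference -0.55, limma adjusted p = 0.67). SMA overlapped WT by 1 library on each side, with a log2 difference of -0.53 (SE 0.28, limma adjusted p = 0.399). The values of this gene are uncertain, since it resembles Zrsr2 and lies inside Commd1 and Gm28048 on the other strand, and whether the libraries kept strand was not given in the sources used here.

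Rbm48, which with Armc7 binds the cap of U6atac, had 7.76, 8.45 and 8.23 TPM in the WT libraries and 9.38, 6.77 and 8.79 TPM in the SMA ones. It was at 15.8, 10.9 and 11.1 TPM with MW150, 6.03, 8.60 and 16.4 TPM with Pifithrin-alpha, and 6.28, 6.66 and 4.53 TPM in the SMN-C3 group. The MW150 libraries were above, and the SMN-C3 libraries below, every WT and every SMA library. Against SMA the log2 differences were 0.53 for MW150 and -0.45 for SMN-C3 (SE 0.34 for both, limma adjusted p of 1 and 0.759). Rbm48 overlaps 1700109H08Rik on the opposite strand, and Rnpc3 overlaps Amy1 on its own strand, so that reads in the shared stretches could be split between them.

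Seen by comparison, SMA and WT libraries overlapped for all 10 members, while they did not overlap for 18.3% of all genes. The median log2 difference of the members was -0.06, beside 0.24 over all genes tested, with 4 members positive and 6 negative (66.5% of all genes were positive). Without WT 1 these medians were 0.061 and 0.12. In MW150 against SMA 4 of 10 members (Snrnp48, Rnpc3, Zrsr2 and Rbm48) did not overlap, all higher with MW150, beside 10.9% of all genes in either direction and 7.53% higher. The members' median was 0.27 and that of all genes 0.06. In Pifithrin-alpha against SMA Snrnp48 and Rnpc3 were higher and Zmat5 lower without overlap. Beside them stood 15.3% of all genes, 5.53% higher and 9.76% lower, and the medians were -7e-04 for the members and -0.22 for all genes. Median-of-ratios scaling, which brings the median of all genes near 0, moved it from 0.24 to 0.03 in SMA against WT and from -0.22 to -0.03 in Pifithrin-alpha against SMA. The members' medians were then -0.31 and 0.26.

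In SMN-C3 against SMA Rnpc3, Zmat5 and Rbm48 were lower without overlap, beside 20.7% of all genes, of which 18.2% were lower. The medians were -0.13 for the members and -0.23 for all genes, and 0.10 and -0.03 under median-of-ratios scaling. Against WT, MW150 had 2 members without overlap (Zrsr2 and Rbm48, both higher; 19.9% of all genes, 17.9% higher), Pifithrin-alpha had 0 (6.87%), and SMN-C3 had 4, all lower (Pdcd7, Rnpc3, Zrsr1 and Rbm48; 12.8%, with 8.82% lower). The members were not tested as a set. The share of TPM in retained-intron transcripts was 6.195%, 4.08% and 3.92% in WT, 3.56% to 4.80% in SMA, 5.00% to 5.34% with MW150, 4.34% to 4.99% with Pifithrin-alpha and 3.15% to 3.20% with SMN-C3. The MW150 libraries were thus above and the SMN-C3 libraries below every SMA library, while WT and Pifithrin-alpha overlapped SMA. The part of this share in the members' levels was not tested.

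**Figure D3:**
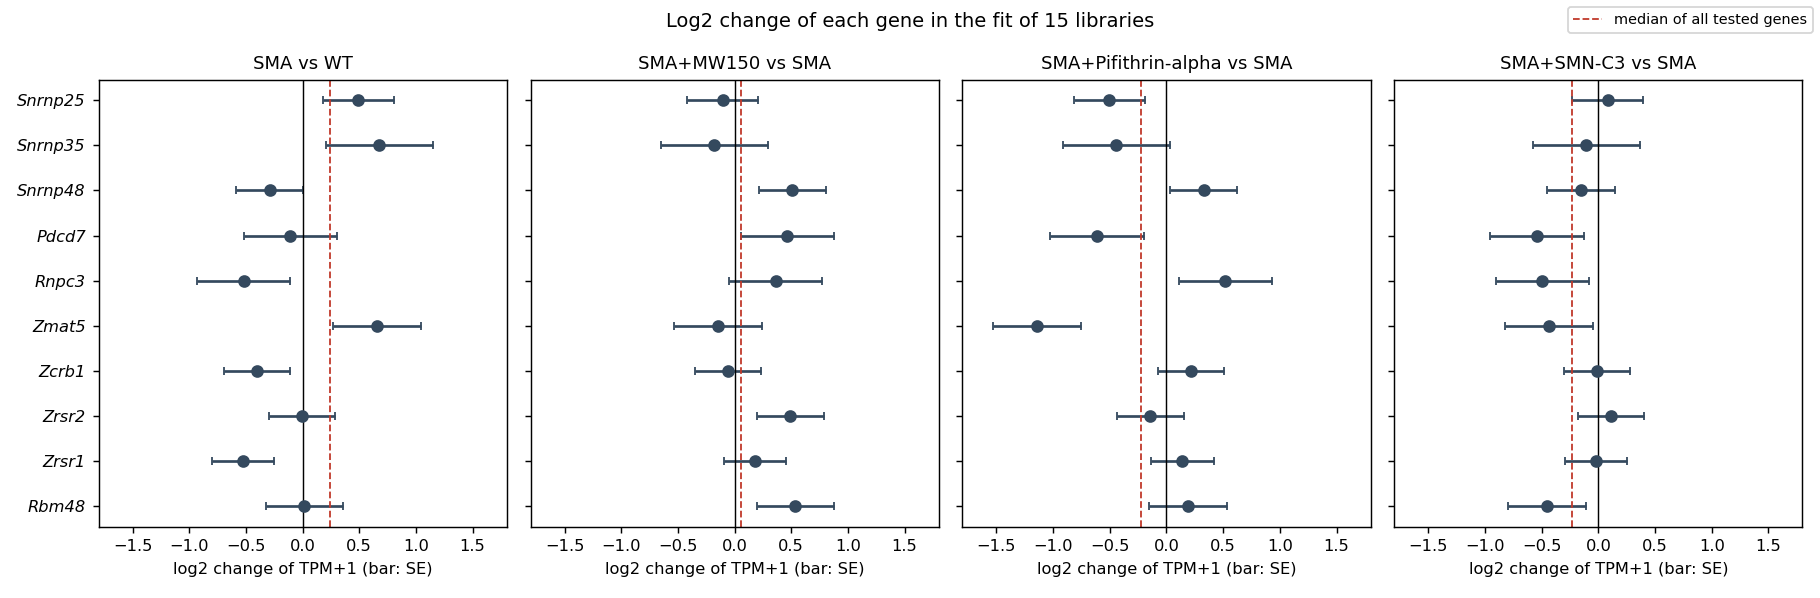
Log2 difference of TPM+1 for each of the 10 genes (points, bars are the SE of the limma fit of 15 libraries) in SMA against WT and in each treated group against SMA; the dashed line is the median of all 15425 genes tested in that comparison. Zmat5 with Pifithrin-alpha, at -1.14, is the point farthest from 0, and none of the 10 passed the test in any panel.

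Gene totals hide which transcript forms carried them, and here the deposited transcript table added detail. The members had 53 annotated transcripts, of which 35 passed the filter and were tested among 41719. None was called in any of the 7 comparisons. The share of all transcripts called was 0.221% in SMA against WT, 0.0024%, 0.00479% and 0.012% for MW150, Pifithrin-alpha and SMN-C3 against SMA, and 0.0911%, 0.0503% and 0.0288% for the same groups against WT. At an unadjusted p under 0.05 there were 7 of the 35 in SMA against WT (12.2% of all transcripts) and 6 of 35 in MW150 against SMA (4.52%). The count was 4 of 35 for Pifithrin-alpha and 0 for SMN-C3 against SMA. Against WT it was 2, 0 and 4 of 35 for MW150, Pifithrin-alpha and SMN-C3. For these other comparisons the shares of all transcripts are not given here. In 9 members 1 form held over 50% of the mean TPM of the 15 libraries, and Zrsr2 alone had none that did. The leading forms were Zcrb1-201 (159 TPM), Snrnp25-201 (71.7 TPM), Zmat5-201 (41.0 TPM), Snrnp35-201 (11.1 TPM, beside 2.43 TPM for Snrnp35-202) and Rbm48-201 (6.66 TPM, beside 1.68 TPM for the retained-intron Rbm48-203). Zrsr2 was made up of Zrsr2-208 (30.1 TPM), Zrsr2-201 (29.1 TPM) and Zrsr2-204 (20.6 TPM), with Zrsr2-206 (3.61 TPM) and Zrsr2-207 (1.21 TPM) below them. Pdcd7 was split between Pdcd7-201 (9.88 TPM) and Pdcd7-203 (4.86 TPM), and Zrsr1 between Zrsr1-201 (13.7 TPM), Zrsr1-202 (7.04 TPM, annotated as a processed pseudogene) and Zrsr1-203 (1.57 TPM). In Rnpc3 it was Rnpc3-203 (23.2 TPM), before Rnpc3-202 (12.3 TPM) and Rnpc3-201 (2.80 TPM). In Snrnp48 it was Snrnp48-201 (17.4 TPM), before Snrnp48-203 (7.45 TPM), Snrnp48-204 (2.34 TPM) and the retained-intron Snrnp48-205 (1.42 TPM). Zcrb1 had minor forms besides, namely Zcrb1-206 (23.8 TPM, annotated for nonsense-mediated decay), Zcrb1-208 (14.01 TPM), Zcrb1-207 (13.2 TPM), Zcrb1-204 (4.67 TPM) and Zcrb1-202 (1.13 TPM).

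The high total of Zcrb1 in WT 1 was only in part in its main form. Zcrb1-201 had 213, 146 and 148 TPM in the WT libraries and 165, 157 and 150 TPM in the SMA ones, so WT 1 stood out far less for it than for the whole gene. Most of the excess of WT 1 was in the forms annotated as retaining an intron, which summed to 170.1 TPM in WT 1 and to 1.55 to 24.9 TPM in the other 14 libraries. Zcrb1-207 alone was at 131 TPM in WT 1 and at most 14.99 TPM elsewhere.

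Other members of WT 1 also had unusual forms. Rbm48-201, the main coding form, was at 0.0149 TPM in WT 1, where the retained-intron form Rbm48-203 held 7.75 TPM, and at 6.53 and 7.45 TPM in WT 2 and WT 3. Zrsr2-208 was close to 0 in WT 1 (1e-05 TPM) against 48.1 and 31.7 TPM in the other WT libraries, and Zrsr2-201 was at its highest of the 15 there, 46.6 TPM. In Pifithrin-alpha 3 Zrsr2-208 was at 0.871 TPM, against 38.7 and 12.96 TPM in the other Pifithrin-alpha libraries. The Rbm48 total of WT 1, 7.76 TPM, was thus close to those of WT 2 and WT 3 but was made of another transcript.

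For Rnpc3 the form with the tandem and the form without it took shares that differed among the libraries; these shares were chosen for description after their values had been seen. Transcripts with the tandem (Rnpc3-201, Rnpc3-202 and Rnpc3-208) held 76.1%, 34.1% and 46.9% of the gene's TPM in WT and 15.4%, 22.5% and 20.8% in SMA. They held 33.5%, 35.1% and 37.4% with MW150, 36.1%, 38.3% and 15.6% with Pifithrin-alpha, and 20.6%, 15.7% and 19.0% with SMN-C3. All WT and all MW150 libraries were above all SMA libraries, the SMN-C3 libraries overlapped SMA, and Pifithrin-alpha 3 was the one library of its group down among them. The mean was 52.4% ± 21.5 in WT and 19.6% ± 3.71 in SMA (SD, n = 3 each), a difference of -32.8 percentage points with an exact two-sided permutation p of 0.1, the smallest that 3 against 3 can give. Without WT 1 the difference was -20.9 points. MW150 differed from SMA by 15.8 points (exact permutation p = 0.1), Pifithrin-alpha by 10.4 points (exact p = 0.3; 17.6 points without Pifithrin-alpha 3), and SMN-C3 by -1.11 points (exact p = 0.7). From WT, MW150 differed by -17.1 points (exact p = 0.3; -5.17 without WT 1), Pifithrin-alpha by -22.4 points (exact p = 0.3; -10.5 without WT 1) and SMN-C3 by -33.9 points (exact p = 0.1; -22.0 without WT 1).

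In TPM the forms with the tandem were at 90.7, 9.54 and 13.5 TPM in WT and 5.02, 7.67 and 5.99 TPM in SMA, then at 15.9, 13.2 and 14.5 TPM with MW150, 14.9, 20.5 and 6.84 TPM with Pifithrin-alpha and 5.73, 2.69 and 4.40 TPM in the SMN-C3 group. The forms without it were at 28.4, 18.4 and 15.3 TPM in WT and 27.6, 26.5 and 22.7 TPM in SMA. For the latter forms the SMA libraries were above WT 2 and WT 3, whereas for those with the tandem they were below both, and WT 1 was the highest WT library for both kinds of form. WT 1 held its 119 TPM of Rnpc3 mostly in forms that include the tandem, and among the other 14 libraries these ran from 2.69 to 20.5 TPM. The main form with the tandem, Rnpc3-202, had 74.6, 7.45 and 12.1 TPM in the WT libraries and 4.63, 4.85 and 4.21 TPM in the SMA ones. Its log2 difference was -1.87 (SE 0.60, unadjusted p = 0.00666, limma adjusted p = 0.272), and it was -0.92 without WT 1 (limma adjusted p = 0.742). Rnpc3-203, the main form without it, differed by 0.30 (SE 0.30, limma adjusted p = 0.664), and by 0.57 without WT 1.

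For Snrnp48 the forms with the extra exon (Snrnp48-203 and Snrnp48-204) held 42.5%, 34.1% and 49.5% of the gene's TPM in WT and 16.0%, 30.2% and 21.5% in SMA. They held 43.6%, 43.4% and 39.2% with MW150, 35.6%, 45.5% and 19.2% with Pifithrin-alpha, and 22.5%, 17.6% and 26.1% with SMN-C3. Again WT and MW150 libraries were all above SMA, SMN-C3 overlapped SMA, and Pifithrin-alpha 3 was low in its group. WT 1 did not stand apart for this share. The mean was 42.0% ± 7.67 in WT and 22.6% ± 7.17 in SMA (SD, n = 3 each), a difference of -19.5 points (exact permutation p = 0.1). It was -19.2 points without WT 1. MW150 differed from SMA by 19.5 points (exact permutation p = 0.1), Pifithrin-alpha by 10.8 points (exact p = 0.3; 17.9 points without Pifithrin-alpha 3) and SMN-C3 by -0.49 points (exact p = 1). From WT, MW150 differed by 0.03 points (exact p = 1), Pifithrin-alpha by -8.61 points (exact p = 0.5; -1.50 without Pifithrin-alpha 3) and SMN-C3 by -19.9 points (exact p = 0.1).

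The extra-exon forms of Snrnp48 were at 21.5, 7.94 and 11.2 TPM in WT, 4.35, 7.90 and 4.37 TPM in SMA and 18.0, 14.5 and 12.2 TPM with MW150. With Pifithrin-alpha they were at 10.5, 13.1 and 6.65 TPM, and with SMN-C3 at 4.53, 3.74 and 6.33 TPM. The forms without it were at 29.2, 15.3 and 11.5 TPM in WT, 22.8, 18.2 and 16.0 TPM in SMA and 23.2, 18.9 and 19.0 TPM with MW150, so they overlapped between these groups while the extra-exon forms did not overlap between SMA and either of the other groups. Snrnp48-203 alone differed between MW150 and SMA by 1.36 on the log2 scale (SE 0.40, unadjusted p = 0.00362, limma adjusted p = 0.75). SMA differed from WT by -0.996 for the same form (SE 0.40, limma adjusted p = 0.362), and by -0.69 without WT 1.

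**Figure D4:**
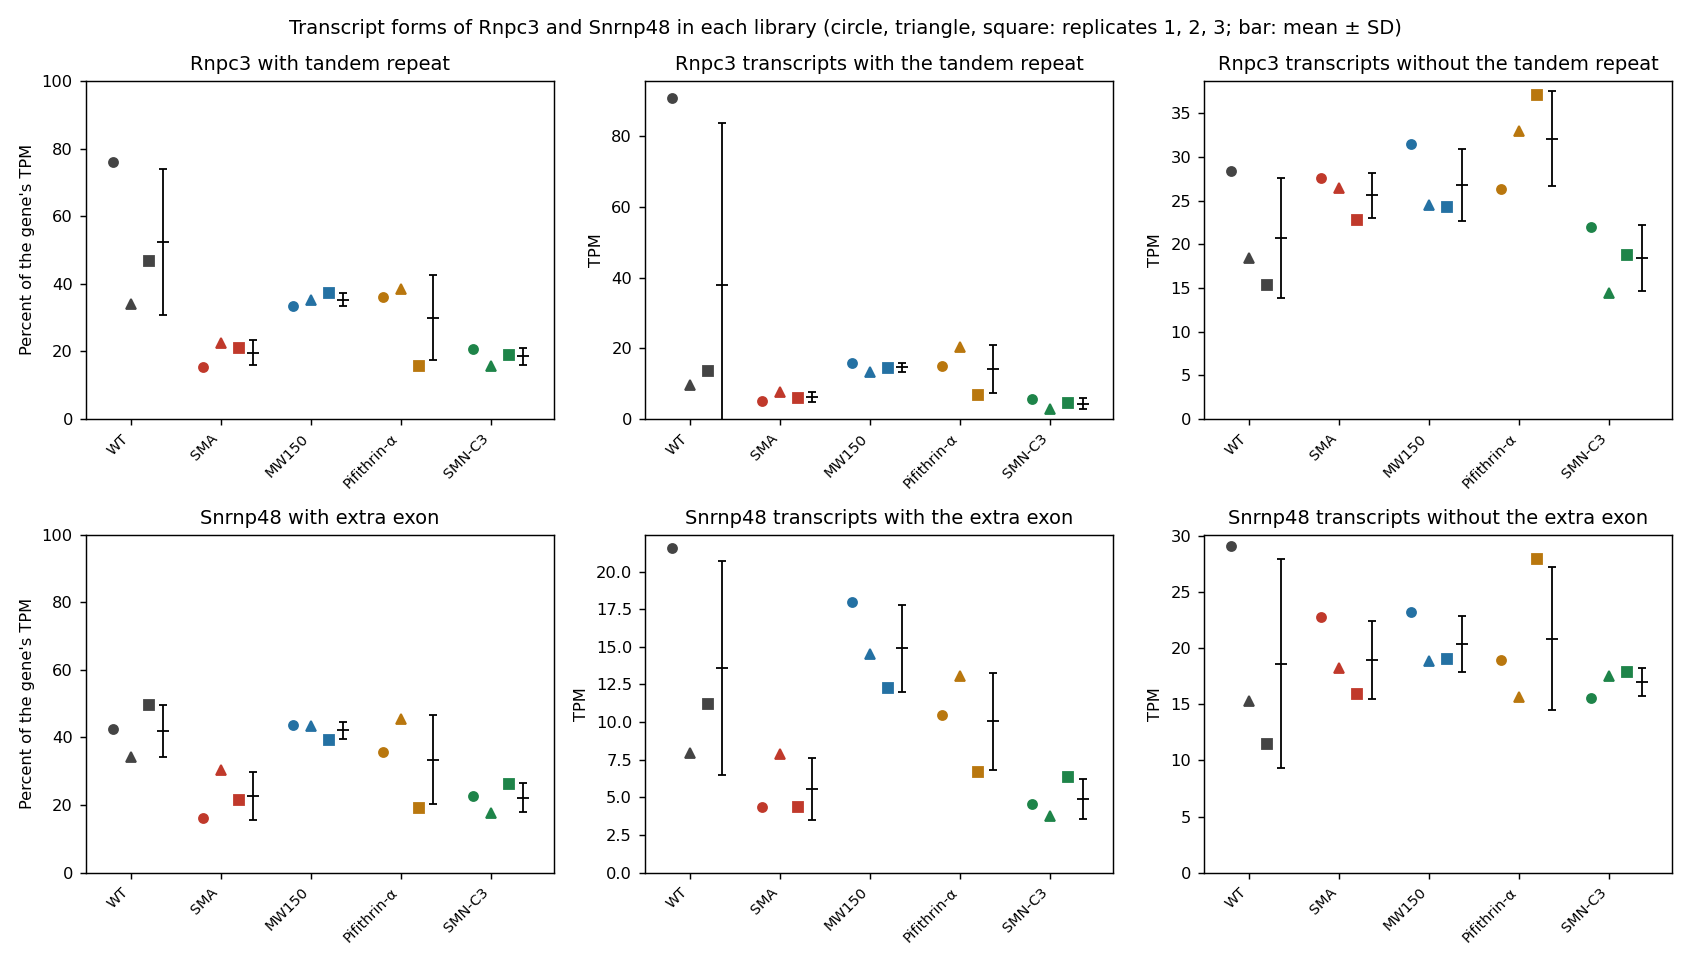
Share of the gene's TPM in forms with the tandem (Rnpc3, top left) or with the extra exon (Snrnp48, bottom left), and the TPM of the forms with and without it (middle and right), in each library by group; circles, triangles and squares are replicates 1, 2 and 3, and bars are the mean ± SD of 3 libraries, with the WT bar of the top middle panel cut at 0. SMA libraries lie at 15.4% to 22.5% for Rnpc3 and 16.0% to 30.2% for Snrnp48, below every WT and MW150 library.

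When each transcript was set against the rest of its own gene in a limma fit of 35860 transcripts, 34 of them from the members, 0 of the 34 were called in any comparison. Of all transcripts in that fit 0.00279% were called in SMA against WT and as many in SMN-C3 against WT, and 0% in the other 5 comparisons. At an unadjusted p under 0.05 there were 9 of 34 in SMA against WT (11.3% of all) and 6 of 34 in MW150 against SMA (4.44%). The count was 1 of 34 for Pifithrin-alpha and 0 for SMN-C3 against SMA. Against WT it was 2, 3 and 6 of 34 for MW150, Pifithrin-alpha and SMN-C3. For these other comparisons the shares of all transcripts are not given here. In SMA against WT 11 of the 34 had groups that did not overlap, beside 14.7% of all transcripts in that fit. In MW150 against SMA the count was 14 of 34 beside 12.5%, in Pifithrin-alpha against SMA 4 of 34 beside 13.1%, and in SMN-C3 against SMA 6 of 34 beside 14.6%. Against WT it was 3 of 34 for MW150 beside 15.2%, 0 for Pifithrin-alpha beside 9.17% and 7 for SMN-C3 beside 14.1%. Forms of one gene are not independent of each other, since one form's gain is another's loss. At the top of SMA against WT was Rnpc3-202, whose log2 ratio to the rest of the gene differed by -1.99 (SE 0.50, unadjusted p = 0.0013, limma adjusted p = 0.207). Rnpc3-203 was at 1.795 (limma adjusted p = 0.276) and Snrnp48-201, which skips the extra exon, at 1.504 (limma adjusted p = 0.327). Without WT 1 the ratios differed by -1.45, 1.14 and 1.32. Which of several overlapping forms a read came from is an estimate of the authors' program, for which the files give no spread. The libraries' share of TPM in retained-intron transcripts, given above, was also higher in every MW150 library than in every SMA library, and its part in these shares was not tested.

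Genes around the members were read from lists. Of the other minor spliceosome factors, Armc7, Scnm1, Ccdc84 and Txnl4b were tested, and 0 of 4 were called in any comparison by limma. Of these 4 factors, 0 had an unadjusted p under 0.05 in any comparison (1.9% to 13.5% of all genes). Their median log2 difference of SMA from WT was 0.26, from -0.09 for Txnl4b to 1.49 for Armc7, the partner of Rbm48 (SE 0.76, limma adjusted p = 0.387). SF3b proteins, which the U2 and the U11/U12 particles share, had a median of 0.39, from -0.17 for Sf3b1 to 1.02 for Sf3b5. Of these 7 genes 0 were called by limma, and 2 had an unadjusted p under 0.05 (13.5% of all genes). The Sm core proteins, which SMN loads, had a median of 0.32, from -0.27 for Snrpe to 1.04 for Snrpb. Of these 8 genes 0 were called by limma, and 1 had an unadjusted p under 0.05 (13.5% of all genes).

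Proteins of the major U1 and U2 particles, listed together with those of the splicing factor U2AF, had a median of 0.61 in SMA against WT. Of these 10 genes 1 was called. At an unadjusted p under 0.05 there were 5 of 10 (13.5% of all genes), and 5 were higher and 1 lower in SMA without overlap (18.3% of all genes in either direction). The called gene was Snrpa1, a U2 protein, whose mean was 68.4 ± 4.75 TPM in the WT libraries and 158 ± 34.3 TPM in the SMA ones (SD, n = 3 each), a log2 difference of 1.17 (SE 0.23, limma adjusted p = 0.0305). That call was lost when WT 1, WT 2, WT 3, SMA 1 or SMA 3 was left out, with differences of 1.02 to 1.22 and limma adjusted p of 0.0565 to 0.232, but not when SMA 2 was. Snrpa1 was also called with Pifithrin-alpha against WT (1.24, limma adjusted p = 0.0421). In the same list Sf3a2 differed by 1.24 and Snrpb2 by -1.21 in SMA against WT, without passing the test. Among 31 genes of families known to hold U12-type introns, the median was -0.08 beside 0.24 for all genes, with 15 positive and 16 negative. Of the 31 genes 0 were called by limma, and 1 had an unadjusted p under 0.05 (13.5% of all genes). The log2 differences ran from -0.86 for the calcium channel gene Cacna1a to 0.98 for the nucleolar Nop2. The medians of all these lists in SMA against WT include WT 1 and were not taken without it. Leaving out WT 1 moved the median of the members from -0.06 to 0.061. With MW150 against SMA the median of the 31 genes was 0.31 beside 0.06 for all genes, with 0 of 31 called by limma. In that comparison 2 had an unadjusted p under 0.05 (1.9% of all genes) and 7 were higher without overlap (7.53% of all genes).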

How the data were processed

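Poly(A) RNA of laser-captured motor neurons was amplified at low input and sequenced with paired ends of 100 bases. The authors deposited TPM values per gene and per transcript, and each library summed to 1000000. The submitters' processing notes name kallisto 0.44.0 and DESeq2 and the builds GRCm38.p6 and mm10; the index, annotation release, trimming and strand setting were not given in the sources used here. Of 118489 listed transcripts 116728 (98.5%) matched GENCODE M21, from which coordinates and sequences were taken. TPM holds no counts, so depth is unknown, no intervals or floors are given, and no count model was used. The replicate numbers named libraries only.

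A gene was tested where 3 or more of the 15 libraries reached 1 TPM, on log2(TPM+1), where 1 is the pseudocount. Limma 3.58.1 in R 4.3.3 fitted a mean per group to all libraries with a variance trend, two-sided, and adjusted p-values by Benjamini-Hochberg within each comparison over all genes or transcripts tested. The fit was tested on simulated data. Shares of a gene's TPM were compared by exact permutation tests in scipy 1.17.1, which cannot go below 0.1 with 3 against 3. Their 2 genes gave 14 tests; the smallest adjusted p these could reach is above 0.05. Python 3.11.15, pandas 2.3.3 and matplotlib 3.10.9 made tables and figures.

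The members, lists and tests were chosen with earlier results of these data known. All 10 members were named, with their transcripts of at least 1 TPM on average; other genes were named where called or at either end of their list in SMA against WT, and the 3 genes most like the member with the largest F by Pearson r. The alternatives were other scalings, pseudocounts and filters, array weights (gene by gene, since the planned REML method did not converge), a term for the mitochondrial share, a replicate block, and leaving out libraries. The genes for U11, U12, U4atac and U6atac RNAs were not matched under those symbols and are not analysed here; Cenatac is listed as Ccdc84 and was tested. Genes with U12-type introns were not found by sequence, since no genome sequence was used here.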

Additional observations from a re-analysis of the deposited data

How the results depend on the processing

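No member was called in any of the 7 comparisons or in the 5-group test under the scalings, pseudocounts, filters, terms and left-out libraries tried, with 1 exception. Array weights called 2 members in Pifithrin-alpha against SMA, Rnpc3 (0.72, limma adjusted p = 0.0386) and Zmat5 (-0.86, adjusted p = 0.0234), where they also called 1574 of 15425 genes, and 4 in the 5-group test, where they called 3228. A replicate block called 0 members and moved the count of all genes in SMA against WT from 56 to 48. Same-numbered libraries of different groups were correlated after each gene's group mean was subtracted from log2(TPM+1). These residuals correlated by -0.34 to 0.29 (median 0.008, 4 of 30 pairs over 0.1), so the numbers were not taken as pairs. The cause of the following changes was not tested.

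In SMA against WT, without WT 1 and Pifithrin-alpha 3 the log2 differences turned to 0.08 for Snrnp48, 0.042 for Pdcd7, 0.16 for Rnpc3, 0.032 for Zcrb1 and -0.015 for Rbm48. With the mitochondrial share as a term Snrnp48 was at 0.013 and Rnpc3 at 0.031, and with array weights Rnpc3 was at 0.029 and Rbm48 at -0.004. Rbm48 was at -0.22 with median-of-ratios scaling, -0.20 with quantile normalization and -0.084 with TPM rescaled without mitochondrial genes. In Pifithrin-alpha against SMA the mitochondrial term gave -0.001 for Snrnp48 and -0.085 for Rnpc3.

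The members' median moved with scaling. Under median-of-ratios it was -0.31 in SMA against WT, 0.26 in Pifithrin-alpha, 0.10 in SMN-C3 against SMA and 0.048 in MW150 against WT; under quantile normalization -0.25, 0.17, 0.044 and 0.14. Rescaling without mitochondrial genes gave 0.12 in Pifithrin-alpha against SMA. With the mitochondrial term it was 0.048 in MW150 and -0.21 in SMN-C3 against WT, with array weights -0.11 in SMN-C3 against WT, and without WT 1 and Pifithrin-alpha 3 0.18 and -0.16.

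Leaving out 1 library at a time, the median ranged from -0.24 to 0.061 in SMA against WT, 0.15 to 0.36 in MW150, -0.13 to 0.03 in Pifithrin-alpha and -0.20 to -0.11 in SMN-C3 against SMA. Against WT it ranged from 0.18 to 0.45, -0.29 to -0.036 and -0.52 to -0.16. For single genes in SMA against WT the ranges that crossed 0 were -0.48 to 0.08 (Snrnp48), -0.35 to 0.085 (Pdcd7), -0.87 to 0.16 (Rnpc3), -0.62 to 0.032 (Zcrb1), -0.26 to 0.18 (Zrsr2) and -0.068 to 0.14 (Rbm48). The shares of Rnpc3 and Snrnp48 forms moved by less than 1 SD between replicates in all 100 alternatives. That SD was taken with WT 1 included, which makes it a wide measure for Rnpc3 against WT (SD of 21.5 points in WT). With 1 library left out, the Rnpc3 share difference ranged from -41.9 to -20.9 points in SMA against WT. In MW150 against WT it ranged from -26.2 to -5.17 points.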
